A study of Mus musculus with 3 samples.

Results

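The blood-brain barrier endothelial genes described here are Cldn5, Slc2a1, Abcb1a, Mfsd2a, Bsg, Pecam1, Flt1, Itm2a, Slco1a4 and Ptprb. They were chosen by gene symbol and not by a cut on a measured value, although earlier results of these data were known at the time. They are 10 of the 31053 gene IDs counted. RNA was captured on 10x Visium arrays, whose barcoded spots each lie under a small area of tissue, from fresh frozen 10 µm sections of C57BL/6J mouse brain. There were 3 sections, 1 per group: Y-Ctrl and O-Ctrl, both labelled as controls, and O-Ex, labelled as exercise. The series concerns exercise and brain aging, so Y and O were read as young and old, although the labels state no ages, kind of exercise or number of animals. The labels give the molecule as nuclear RNA, while the protocol describes whole sections.

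The endothelial cells that line brain capillaries form a barrier between blood and nervous tissue. Tight junctions seal the gaps between the cells, vesicle traffic across them is kept low, and nutrients or drugs cross by membrane transporters or are pumped back into the blood. Wnt signals from the surrounding tissue maintain these features, and vessels of the choroid plexus, which make cerebrospinal fluid together with an epithelium, lack them: their endothelium is fenestrated and the barrier lies in the epithelium.

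Promoters are shown first because a factor family is known for each side of this programme: ETS factors for endothelial genes in general and TCF/LEF factors as the nuclear arm of Wnt signalling. Sequences came from RefSeq (GRCm38.p6) and run from 250 bases before to 50 bases after the start. Of the 10 genes, 7 matched that table. Bsg, Pecam1 and Ptprb are not in it. The first of the 4 shown belongs to the gene with the largest ratio of O-Ex over O-Ctrl in matched spot groups. Over whole sections Bsg was as high. The second belongs to the 1 gene of the 10 that was not called higher in meninges spots. The last 2 belong to genes with the lowest ratios of O-Ctrl over Y-Ctrl. Capitals mark the ETS core AGGAAG or its reverse complement CTTCCT, and the TCF/LEF core CTTTGA or its reverse complement TCAAAG.
Cldn5 (chr16:18776597-18776896, plus strand): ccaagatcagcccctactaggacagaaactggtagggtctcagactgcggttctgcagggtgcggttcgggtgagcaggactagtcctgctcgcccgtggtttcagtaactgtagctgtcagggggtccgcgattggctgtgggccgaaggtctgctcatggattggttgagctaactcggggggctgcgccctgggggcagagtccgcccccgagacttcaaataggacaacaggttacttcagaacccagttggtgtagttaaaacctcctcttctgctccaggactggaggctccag
Mfsd2a (chr4:122961139-122961438, minus strand): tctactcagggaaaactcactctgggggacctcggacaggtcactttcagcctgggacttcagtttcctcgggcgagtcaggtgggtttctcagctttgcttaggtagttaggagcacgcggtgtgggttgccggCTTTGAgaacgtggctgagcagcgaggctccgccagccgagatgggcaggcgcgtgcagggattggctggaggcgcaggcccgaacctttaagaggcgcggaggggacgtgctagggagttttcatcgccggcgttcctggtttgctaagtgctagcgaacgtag
Slco1a4 (chr6:141856171-141856470, minus strand): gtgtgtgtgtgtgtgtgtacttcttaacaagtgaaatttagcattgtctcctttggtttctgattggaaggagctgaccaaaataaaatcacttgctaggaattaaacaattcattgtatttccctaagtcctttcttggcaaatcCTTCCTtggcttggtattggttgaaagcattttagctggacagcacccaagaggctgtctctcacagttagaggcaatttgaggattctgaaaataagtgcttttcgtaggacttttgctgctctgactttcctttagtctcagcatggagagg
Itm2a (chrX:107403311-107403610, minus strand): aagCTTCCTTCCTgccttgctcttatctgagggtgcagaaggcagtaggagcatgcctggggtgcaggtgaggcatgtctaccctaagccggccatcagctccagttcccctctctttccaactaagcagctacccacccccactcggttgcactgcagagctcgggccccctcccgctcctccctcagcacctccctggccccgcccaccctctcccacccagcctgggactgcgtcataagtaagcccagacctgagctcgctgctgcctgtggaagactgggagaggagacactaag
The ETS letters occurred in 4 of the 7 promoters (Abcb1a, Flt1, Slco1a4 and Itm2a) and in 35.4% of all 32851 promoters of this length. In Itm2a the 2 matches overlap. The TCF/LEF letters occurred in 2 of the 7 (Mfsd2a and Abcb1a) and in 16.0% of all promoters. Neither was found in the Cldn5 window. The Abcb1a window lies at a RefSeq start far upstream of the gene start in the annotation used for positions. GC content also differed, at 58.3% for Cldn5, 60.3% for Mfsd2a, 62% for Itm2a and 40.7% for Slco1a4, against a median of 52.7% over all promoters. These are matches of letters and say nothing of binding.

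Total counts of unique molecular identifiers (UMIs, each standing for 1 captured RNA molecule) were between 53196124 and 62348064 per section. Spots with at least 3000 UMIs were used, 3409, 3498 and 3332 for Y-Ctrl, O-Ctrl and O-Ex, with a median of 13685 to 15718 UMIs and 17.8% to 19.7% of UMIs from mitochondrial genes. All 4992 barcodes occur in every section's table, since the arrays share them, and 2869 passed the minimum in all 3. Levels are in CPM, the UMIs of a gene as a scaled share of every UMI in those spots, with exact 95% Poisson intervals, in parentheses, that cover counting error only. Values listed without section names follow the order Y-Ctrl, O-Ctrl, O-Ex. With 1 section per group, condition, animal and place of the cut cannot be told apart and no test between sections was possible. In whole sections, as in spots, fewer cells of a type and less RNA per cell cannot be told apart either. The 10 genes together had 50389, 47193 and 53770 UMIs. Bsg alone gave 33062, 33604 and 39062 of these, so a sum over the 10 is mostly Bsg.

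To compare like with like, spots were put into groups by marker genes that include none of the 10: upper and deep cortical layers, hippocampal pyramidal layer, dentate gyrus, thalamus, hypothalamus, striatum, white matter, choroid plexus, ependyma (the ciliated lining of the ventricles), meninges, arterial smooth muscle and the remaining spots. All 13 groups held at least 20 spots in each section. Choroid plexus spots numbered 43, 48 and 161 in that order, thalamus spots 517, 243 and 237, and striatum spots 139, 126 and 44. A spot can hold several cell types: the leading genes of the meninges group included the haemoglobin genes Hba-a1 and Hbb-bs, and those of the arterial group included Dcn and Mgp of fibroblasts and Igkc of plasma cells. Between 188 and 244 spots per section had a leading score within 0.1 of the minimum for joining a group. A matched ratio is the mean over the 13 groups of the log2 ratio of CPM plus 5, each group weighted equally.

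The comparison of O-Ctrl with Y-Ctrl asks how the barrier genes differ with the age prefix. Itm2a, Slco1a4 and Ptprb had the lowest ratios, with matched log2 ratios of -0.50, -0.53 and -0.46. Bsg had the highest at 0.14, and Slc2a1, the main glucose transporter of the barrier, was at -0.02. In all, 8 of the 10 genes were lower in O-Ctrl, as were 53.4% of all genes in matched groups and 54.4% over whole sections. Their median was -0.17 matched and -0.19 over whole sections, beside -0.01 for all 9013 genes that averaged 10 CPM or more, a minimum that 9 of the 10 passed (Pecam1 did not, at 9.87 CPM). With a pseudocount of 20 CPM, which shrinks the ratios of low genes, the 3 named first were at -0.40, -0.35 and -0.27. At the pseudocount of 5 they were at least 1.2-fold lower, as were 1.58% of all genes in matched groups and 2.27% in whole sections. None of the 10 was 1.5-fold lower in matched groups, and 0.0999% of all genes were. The same 3 were lower in at least 12 of the 13 groups, as were 2.52% of all genes, and Bsg was higher in 12, as were 3.16%.

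The comparison of O-Ex with O-Ctrl asks how they differ with exercise, and it shares the O-Ctrl section with the first. Here 9 of the 10 genes were higher in O-Ex, and Flt1 was level. Of all genes 74.4% were higher in matched groups and 69.8% over whole sections. The median of the 10 was 0.19 matched and 0.22 over whole sections, beside 0.08 and 0.06 for all genes. Cldn5 had the largest matched log2 ratio, 0.36, and was the 1 gene at least 1.2-fold higher in matched groups, as were 6.85% of all genes, while none was 1.5-fold higher there and 0.266% of all genes were. Over whole sections 4 were (Cldn5, Bsg, Slco1a4 and Mfsd2a), beside 5.84% of all genes. Cldn5 and Bsg were higher in at least 12 of 13 groups, as were 10.3% of all genes. With counts scaled by the trimmed mean of M-values (TMM) in place of library size, the medians of the 10 were 0.11 matched and 0.16 whole, those of all genes 0.01 and -0.01. On that scale 9 of the 10 were still higher, while the share of all genes that were higher was 53.1% matched and 45.7% whole. The O-Ex section also held more choroid plexus spots, and its red blood cell genes summed to 2040 CPM against 1100 in O-Ctrl and 1134 in Y-Ctrl. Their part in the ratios was not tested, although Bsg over whole sections had a log2 ratio of 0.16 without the choroid, ependymal, meningeal and arterial spots and 0.35 with them.

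**Figure D1:**
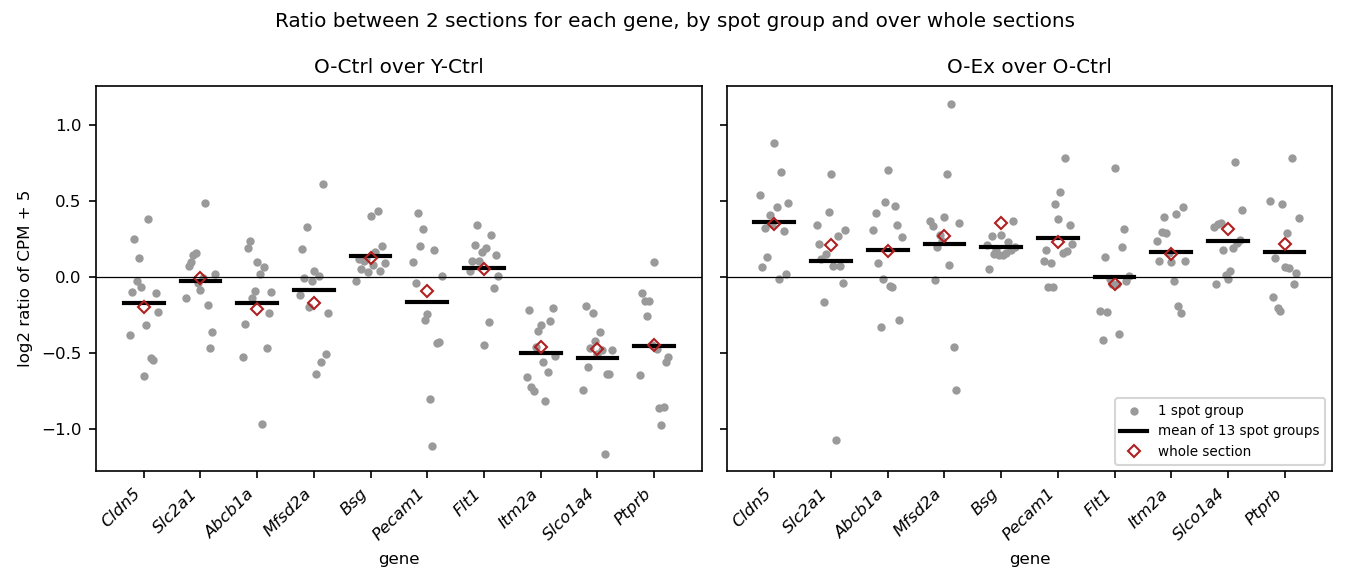
Log2 ratio of CPM plus 5 between 2 sections for the 10 genes (grey points, each of 13 spot groups; black bars, their mean; red diamonds, whole sections). Left, O-Ctrl over Y-Ctrl, where every group lies below 0 for Itm2a and Slco1a4; right, O-Ex over O-Ctrl, where every group lies above 0 for Bsg and 12 of 13 do for Cldn5.

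Cldn5 (ENSMUSG00000041378, chr16:18776847-18778262, plus strand) encodes claudin-5, the claudin that closes brain endothelial tight junctions. Y-Ctrl had 49.8 CPM (48.1 to 51.6), O-Ctrl 42.8 (41.1 to 44.5) and O-Ex 55.9 (53.9 to 58.0), from 3050, 2440 and 2900 UMIs. O-Ctrl was thus the lowest section and O-Ex the highest, with no overlap of the counting intervals. The CPM ratio was 0.859 (0.814 to 0.906) for O-Ctrl over Y-Ctrl and 1.31 (1.24 to 1.38) for O-Ex over O-Ctrl. By spot group, Cldn5 was lower in O-Ctrl than in Y-Ctrl in 10 of 13 and higher in O-Ex than in O-Ctrl in 12 of 13. In the thalamus it had 51.6, 56.9 and 77.1 CPM, so O-Ctrl was not the lowest there. The striatum gave the extreme group in both comparisons, with log2 ratios of -0.65 and 0.88, and it had few spots in O-Ex.

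Slc2a1 (ENSMUSG00000028645, chr4:119108711-119137983, plus strand) encodes the glucose transporter GLUT1. Y-Ctrl had 75.5 CPM (73.3 to 77.7), O-Ctrl 75.1 (72.8 to 77.3) and O-Ex 87.5 (85.0 to 90.1). The control sections overlapped and O-Ex stood above both. Its matched log2 ratio of O-Ex over O-Ctrl was 0.11, below the whole-section value of 0.21, and ranged from -1.07 in the choroid plexus to 0.67 in the striatum. The matched value depended on the setting: it was 0.02 with TMM scaling, 0.20 with groups weighted by their spots and 0.24 without the choroid, ependymal, meningeal and arterial groups, the last 2 close to the whole-section value. The antisense genes Gm12867 and Gm12868 that overlap it were counted at 0.02 CPM or less.

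Bsg (ENSMUSG00000023175, chr10:79704491-79711969, plus strand) encodes basigin, a membrane glycoprotein that carries monocarboxylate transporters to the cell surface and is made by many cell types. Y-Ctrl had 540.3 CPM (534.5 to 546.2), O-Ctrl 589.5 (583.2 to 595.8) and O-Ex 753.2 (745.7 to 760.7). Of the 10 genes it was the 1 whose sections ran upward in that order without overlap. It was higher in O-Ex than in O-Ctrl in all 13 groups, by log2 ratios of 0.05 in the deep cortical layers to 0.37 in arterial smooth muscle spots. Weighting the groups equally gave 0.20 where whole sections gave 0.35, and with TMM scaling these were 0.11 and 0.26.

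Abcb1a, Slco1a4 and Mfsd2a encode transporters that set what stays in the brain. Abcb1a (ENSMUSG00000040584, chr5:8660077-8748575, plus strand) encodes P-glycoprotein, which pumps drugs back into blood, and had 13.4 CPM (12.5 to 14.4), 10.9 (10.1 to 11.8) and 12.9 (11.9 to 13.9). Slco1a4 (ENSMUSG00000030237, chr6:141805440-141856199, minus strand) encodes an organic anion transporter and had 24.9 (23.7 to 26.2), 16.5 (15.5 to 17.6) and 21.7 CPM (20.5 to 23.0). Mfsd2a (ENSMUSG00000028655, chr4:122946850-122961188, minus strand) encodes the carrier that brings lysolipids with docosahexaenoic acid into the brain and restrains vesicle traffic, and had 11.3 (from 10.45 to 12.2), 9.42 (8.64 to 10.3) and 12.3 CPM (11.4 to 13.3). In all 3 genes O-Ctrl was the lowest section, below both others beyond the counting intervals. Of all genes 18.1% were lower in O-Ctrl than in Y-Ctrl in that sense and 33% higher in O-Ex than in O-Ctrl. O-Ctrl had 942 UMIs of Slco1a4 against 1524 in Y-Ctrl, a CPM ratio of 0.663 (0.611 to 0.720), and was lower in 13 of 13 groups. O-Ex lay between the controls for Slco1a4, with a CPM ratio of 1.31 (1.2 to 1.44) over O-Ctrl. The near-identical copies could take or give reads: Abcb1b was counted at 1.12 to 1.47 CPM, and Slco1a5 at 0.39, 0.44 and 1.56 CPM in the 3 sections.

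The adhesion and receptor genes did not share 1 order of sections. Ptprb (ENSMUSG00000020154, chr10:116275523-116389535, plus strand) encodes VE-PTP, an endothelial phosphatase that restrains signalling of the Tie2 receptor and supports VE-cadherin adhesion. It had 15.3 CPM (14.4 to 16.3), 9.89 (9.09 to 10.7) and 12.3 (11.3 to 13.3), so Y-Ctrl was highest and the 3 intervals were apart. Its CPM ratio of O-Ctrl over Y-Ctrl, 0.645 (0.580 to 0.717), was the lowest of the 10, with 12 of 13 groups lower. Flt1 (ENSMUSG00000029648, chr5:147561604-147726011, minus strand) encodes the VEGF receptor VEGFR1 and had 18.5 (17.5 to 19.6), 19.4 (18.3 to 20.6) and 18.6 CPM (17.5 to 19.8), which overlap. Pecam1 (ENSMUSG00000020717, chr11:106654217-106750628, minus strand) encodes the adhesion molecule CD31 of all endothelium and had 9.68 (8.91 to 10.49), 8.79 (8.04 to 9.59) and 11.1 CPM (10.3 to 12.1), with Y-Ctrl overlapping both others.

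Itm2a (ENSMUSG00000031239, chrX:107397099-107403376, minus strand) encodes a small membrane protein enriched in brain endothelium. Y-Ctrl had 64.7 CPM (62.7 to 66.8), O-Ctrl 45.6 (43.8 to 47.3) and O-Ex 51.2 (49.2 to 53.1), from 3961, 2597 and 2653 UMIs. The sections did not overlap, and Y-Ctrl was well above both sections with the O prefix. O-Ctrl was lower than Y-Ctrl in 13 of 13 groups, by log2 ratios of -0.82 in the choroid plexus to -0.20 in arterial smooth muscle spots.

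**Figure D2:**
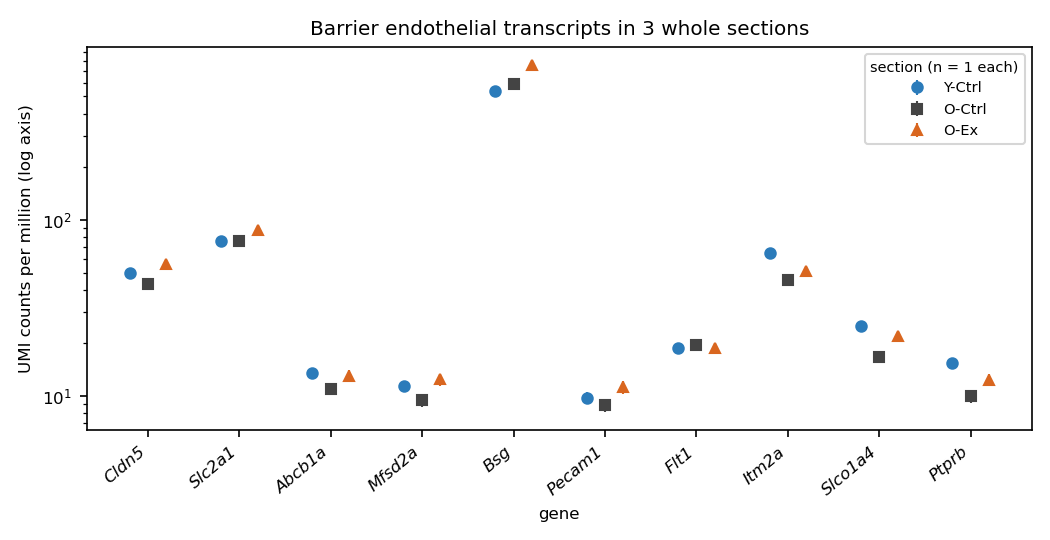
CPM of the 10 genes in each section on a log axis, with 95% Poisson intervals that are mostly smaller than the symbols. O-Ctrl (squares) lies below both other sections for Itm2a and Ptprb, among others, while for Slc2a1 and Pecam1 its interval overlaps that of Y-Ctrl. Bsg lies far above the rest at 540.3 to 753.2 CPM.

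The amount of endothelial RNA in a section was gauged with 13 general endothelial genes outside the 10 (such as Cdh5, Tie1, Egfl7 and Ramp2). They summed to 152.6, 147.6 and 170.1 CPM. In ependyma spots the sum was 418.6, 390.1 and 479.3 CPM, although the median log2 difference of the genes tested was -0.34 there. Single genes can thus weigh heavily in the sum, and it need not follow vessels alone. Per UMI of the 13 genes, Itm2a stood at 0.424 (0.409 to 0.440), 0.309 (0.295 to 0.323) and 0.301 (0.288 to 0.314). On this scale the sections with the O prefix overlapped for Itm2a, and both were below Y-Ctrl. Slco1a4 stood at 0.163, 0.112 and 0.128, and Ptprb at 0.1004, 0.067 and 0.0721. The counting intervals of O-Ctrl and Y-Ctrl were apart for 6 genes. Of these Cldn5, Abcb1a, Itm2a, Slco1a4 and Ptprb were lower, with log2 ratios of -0.17, -0.25, -0.46, -0.54 and -0.58, and Bsg was higher at 0.17, while 7.63% of all genes were lower and 20.4% higher in that sense. Those of O-Ex and O-Ctrl were apart for 4 genes, higher for Cldn5 (0.18), Slco1a4 (0.19) and Bsg (0.15) and lower for Flt1 (-0.27), while 3.72% of all genes were higher and 45.8% lower. The median over the 10 of O-Ctrl over Y-Ctrl was -0.19 with this denominator. With Pecam1, Flt1 and Ptprb as the denominator it was -0.07, taken over the other members only. Ptprb, itself among the lowest, is thus in that denominator and not in that median, so the medians cover different genes.

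Where in the brain the genes were high could be tested, since the same spot groups recur in 3 sections. Counts were summed per section and group and each group set against the mean of the other 12 with edgeR's quasi-likelihood test, with section as a block and Benjamini-Hochberg adjustment over 14194 genes. Most of the 10 were higher in meninges and arterial smooth muscle spots and lower in the cortical and hippocampal layers. In the choroid plexus some were higher and some lower, in shares near those of all genes. The sections differ in age prefix and exercise, so the spread between sections includes those differences.

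In meninges spots 9 of the 10 genes were higher, while 15% of all genes were. Abcb1a had 47.2, 32.8 and 42.8 CPM, its top group in each section, a log2 difference of 1.92 ± 0.17 (SE, 3 sections, edgeR adjusted p = 6.57e-12). Itm2a had 183.0, 149.0 and 125.5 CPM there, above every other group in each section (1.53 ± 0.09, edgeR adjusted p = 9.52e-17). Mfsd2a was the exception, with 4.93, 10.1 and 6.01 CPM (-0.54 ± 0.31, edgeR adjusted p = 0.22). All 12 general endothelial genes tested were higher in these spots too, with a median log2 difference of 1.36.

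In arterial smooth muscle spots 8 of the 10 were higher, while 7.89% of all genes were. Ptprb had 84.6, 55.8 and 56.9 CPM, its top group in all 3 sections and 5.38-fold the mean of the others (edgeR adjusted p = 3.92e-16). Cldn5 had 146.1, 135.3 and 137.0 CPM there and 166.1, 112.3 and 139.8 in meninges spots, which overlap, and the next group, white matter, was apart from both at 51.4 to 72.7 CPM. Mfsd2a (15.1, 9.14 and 3.45 CPM) and Bsg did not pass, with log2 differences of -0.16 ± 0.31 and -0.03 ± 0.07 (edgeR adjusted p = 0.84 and 0.87). Itm2a and Slco1a4 passed at 0.49 and 0.52, and neither did without the O-Ctrl section (edgeR adjusted p = 0.053 and 0.081) or without O-Ex (0.32 and 0.10), nor Slco1a4 without Y-Ctrl (0.21).

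Mfsd2a was highest in the thalamus in every section, at 18.3, 15.3 and 19.5 CPM (0.88 ± 0.14, edgeR adjusted p = 2.11e-06), where 25.1% of all genes were higher. Abcb1a passed there too at 0.33, which was lost without Y-Ctrl or O-Ctrl (edgeR adjusted p = 0.12 and 0.17). Itm2a and Bsg were lower (-0.35 and -0.16), while 27.6% of all genes were, and both were lost without Y-Ctrl (0.10 and 0.18), as Bsg was without either other section (0.23 and 0.094). Neither Cldn5 (0.22, edgeR adjusted p = 0.051) nor Slc2a1 (-0.17) passed in the thalamus. Cldn5 did pass with library sizes alone, without the filter, with a score of at least 1.5, with a minimum of 1000 UMIs and without Y-Ctrl (edgeR adjusted p = 0.013, 0.021, 0.015, 0.048 and 0.0013), and Slc2a1 passed as lower without O-Ex (0.036). Mfsd2a was also higher in white matter, at 16.7, 8.92 and 17.3 CPM (0.68 ± 0.17, edgeR adjusted p = 5.58e-04), which was lost without Y-Ctrl (adjusted p = 0.053). Cldn5 and Ptprb passed in meninges and arterial smooth muscle spots and Mfsd2a in neither, although the difference between genes was not tested.

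In white matter 7 of the 10 were higher, while 28.8% of all genes were. Slc2a1 led with 131.3, 130.6 and 137.2 CPM (0.74 ± 0.10, edgeR adjusted p = 5.60e-08), nearly the same in each section. Cldn5 had 65.3, 51.4 and 72.7 CPM (0.47 ± 0.10, edgeR adjusted p = 9.91e-05). Abcb1a, Mfsd2a, Slco1a4, Ptprb and Flt1 were the others, at 0.59, 0.68, 0.36, 0.38 and 0.37. Flt1 was lost without O-Ctrl (edgeR adjusted p = 0.066) and Ptprb without Y-Ctrl (0.11). Bsg was lower at -0.20, while 29.6% of all genes were, and the call was lost without O-Ctrl or O-Ex (0.17 and 0.13).

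In choroid plexus spots 4 genes were higher (Bsg, Slco1a4, Slc2a1 and Flt1) and 3 lower (Abcb1a, Cldn5 and Mfsd2a). These counts were near the shares of all genes, 29.1% higher and 27.2% lower. Bsg had 1950, 2183 and 2433 CPM, 4.43-fold the mean of the other groups (2.15 ± 0.06, edgeR adjusted p = 5.01e-30), and no other group exceeded 896 CPM. Slco1a4 had 56.5, 39.0 and 45.2 CPM (1.37 ± 0.11, edgeR adjusted p = 7.31e-14), its second highest group in every section. Cldn5 was at its lowest of all groups there, with 17.4, 24.2 and 24.0 CPM (-1.05 ± 0.16, edgeR adjusted p = 4.86e-07). Abcb1a had 10.9, 3.12 and 2.75 CPM from 10, 4 and 10 UMIs (-1.43 ± 0.30, edgeR adjusted p = 8.00e-05). Plvap, which forms the diaphragms of fenestrated vessels and is kept off in barrier endothelium, was higher at 42.4, 35.1 and 28.4 CPM (1.30 ± 0.14), and 6 of 12 general endothelial genes were higher and none lower. Slc2a1 had 121.7, 172.4 and 79.6 CPM, so O-Ex stood below both controls, and Flt1 33.7, 26.5 and 19.3. Leaving out 1 section ended the call for Slc2a1 (without O-Ctrl, edgeR adjusted p = 0.11), Flt1 (without Y-Ctrl, 0.075), Abcb1a (without O-Ex, 0.085) and Mfsd2a (without any, 0.084 to 0.23). Scaling by library size alone moved the median of all genes in this contrast by -0.25 on the log2 scale and ended the call for Flt1 (0.15).

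In ependyma spots Slc2a1 was the 1 gene that was higher, where 24.7% of all genes were. Its 333.6, 292.4 and 352.6 CPM were the highest of any group in each section, apart from the next group at no more than 189.4 CPM (1.79 ± 0.10, edgeR adjusted p = 5.95e-18). Cldn5, Flt1, Ptprb and Bsg were lower (-0.57, -0.48, -0.66 and -0.24), while 23.9% of all genes were. None of these 4 passed with library sizes alone (edgeR adjusted p = 0.06 to 0.83), a scaling that moved the median of all genes by 0.23 here. Without Y-Ctrl, Flt1, Ptprb and Bsg were lost too (0.30, 0.093 and 0.39), and without O-Ctrl Flt1 and Ptprb were (0.088 and 0.14).

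**Figure D3:**
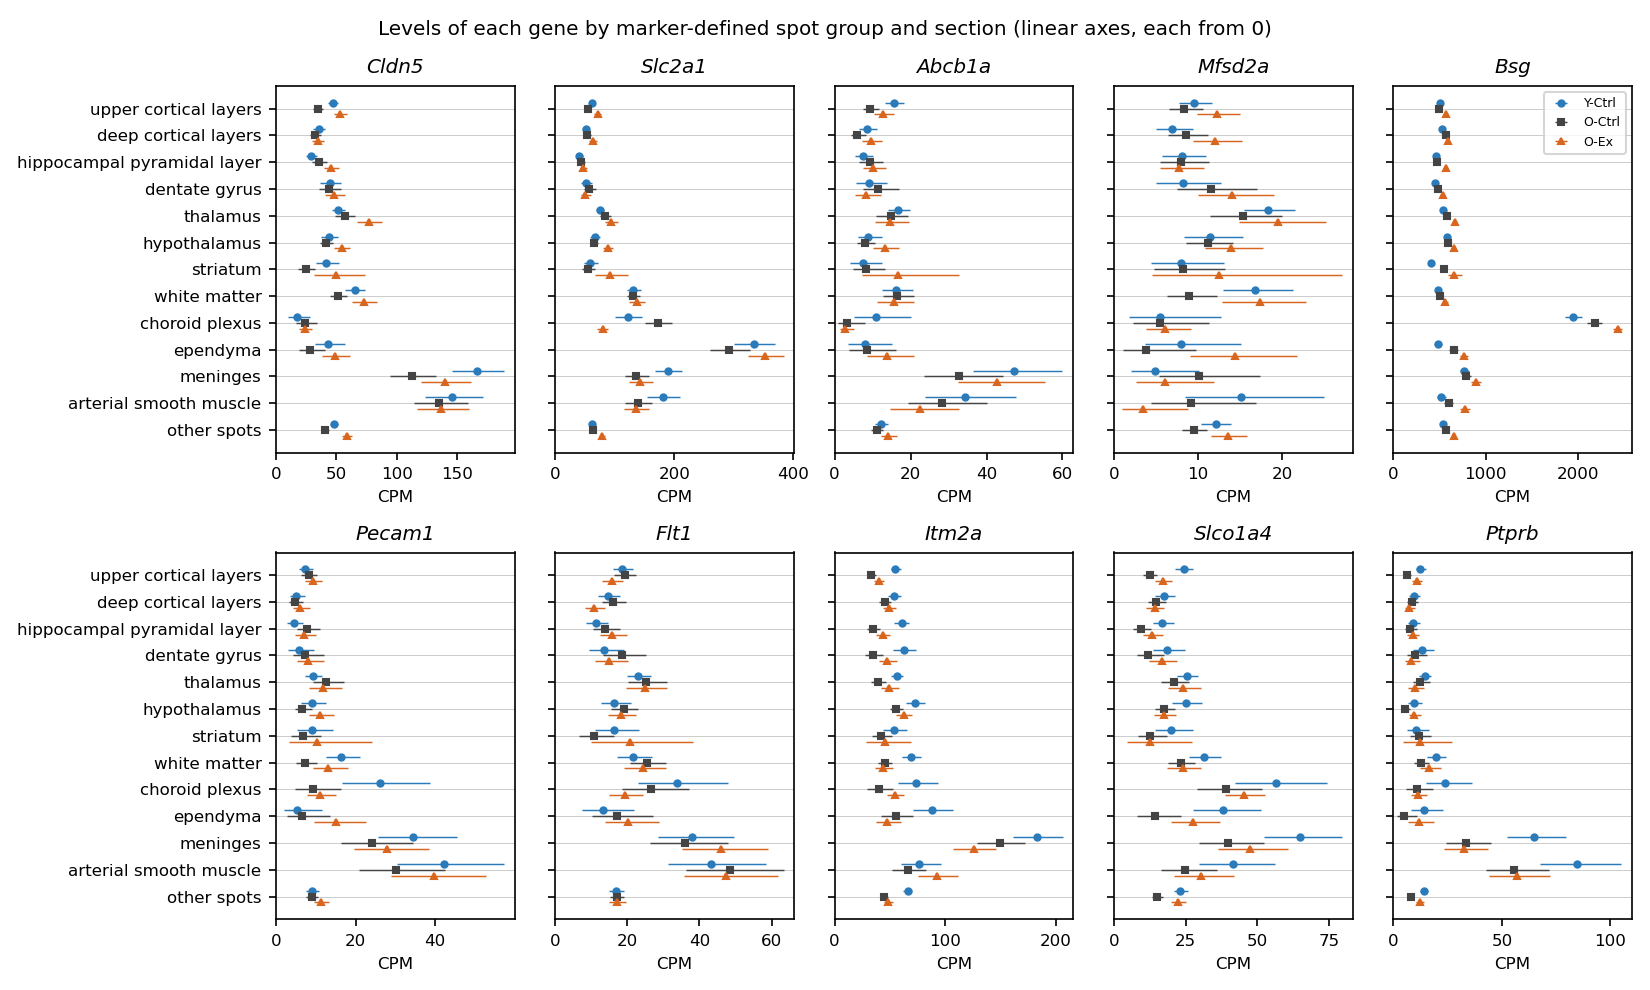
CPM of each gene (linear axes from 0, with 95% Poisson intervals) in 13 spot groups and 3 sections. Cldn5, Ptprb and Pecam1 peak in meninges and arterial smooth muscle spots, Slc2a1 in ependyma, Bsg in the choroid plexus at 1950 to 2433 CPM and Mfsd2a in the thalamus.

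Cortical and hippocampal layers gave mostly low levels. In the deep cortical layers 9 of the 10 genes were lower, while 21.3% of all genes were, and 9 were in the hippocampal pyramidal layer, where 27.8% of all genes were. Pecam1 had the largest difference in deep layers (-1.12 ± 0.19, edgeR adjusted p = 5.95e-06) and Slc2a1 in the pyramidal layer, at 39.9, 43.0 and 47.2 CPM (-1.12 ± 0.12, edgeR adjusted p = 6.85e-10). Mfsd2a was the gene that did not pass in either (-0.15 ± 0.16 and -0.34 ± 0.18). In deep layers Bsg was lost without O-Ctrl or O-Ex (edgeR adjusted p = 0.099 and 0.058) and Itm2a without Y-Ctrl (0.22). In the pyramidal layer Abcb1a was lost without Y-Ctrl (edgeR adjusted p = 0.27). In the upper cortical layers 8 were lower and in the dentate gyrus 7, while 26.4% and 18.6% of all genes were. Dentate calls lost were Pecam1 without O-Ex (edgeR adjusted p = 0.11), Flt1 without Y-Ctrl (0.069) and Itm2a without O-Ctrl (0.12). Ptprb was lost there without Y-Ctrl or O-Ex (edgeR adjusted p = 0.086 and 0.21), while Abcb1a passed as lower without O-Ctrl (0.048). In upper layers Abcb1a was level at 0.05 ± 0.12, and Cldn5 and Flt1 were near the threshold (-0.21 each, edgeR adjusted p = 0.047 and 0.049), and both were lost without O-Ctrl (0.28 and 0.087) or without O-Ex (0.073 and 0.38), Flt1 also without Y-Ctrl (0.066). Pecam1 was lost there without Y-Ctrl or O-Ex (edgeR adjusted p = 0.064 and 0.082). Fewer genes passed in the hypothalamus and striatum, with 3 lower in each beside 22.9% and 5.02% of all genes. Hypothalamus calls lost were Slc2a1 without Y-Ctrl or O-Ctrl (edgeR adjusted p = 0.077 and 0.059) and Slco1a4 without Y-Ctrl or O-Ex (0.098 and 0.29). The striatum calls, Slc2a1, Bsg and Slco1a4, were each lost without Y-Ctrl (edgeR adjusted p = 0.18, 0.065 and 0.11) or O-Ctrl (0.35, 0.20 and 0.22). In the remaining spots 4 were lower, beside 19.2% of all genes. Of these, Flt1, Slco1a4 and Ptprb were lost without O-Ctrl (edgeR adjusted p = 0.071, 0.17 and 0.16), and Slco1a4 and Ptprb without Y-Ctrl (0.39 and 0.11).

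**Figure D4:**
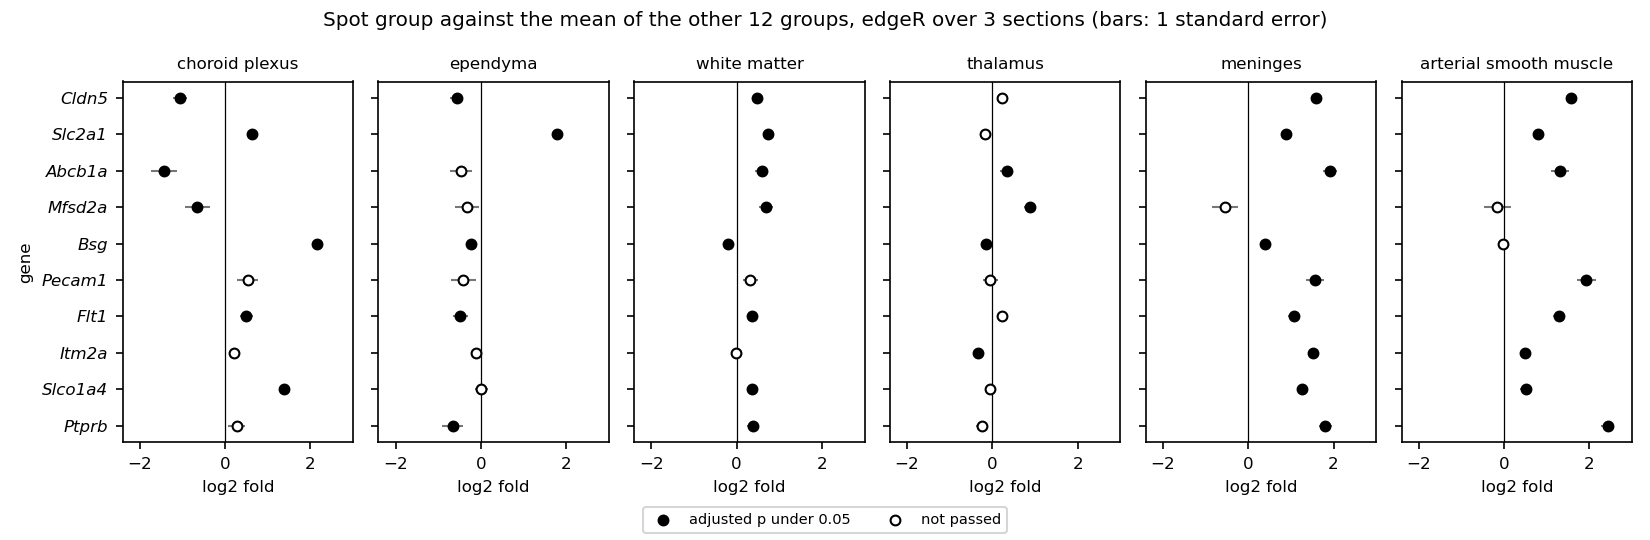
Log2 difference of each gene between a spot group and the mean of the other 12 (points, filled where the edgeR adjusted p was under 0.05; bars, 1 SE) in 6 groups. Most genes lie right of 0 in meninges and arterial smooth muscle, Mfsd2a does not, and the choroid plexus spans -1.43 for Abcb1a to 2.15 for Bsg.

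Other genes of the barrier were read from lists chosen by function. Of 9 further junction genes, 4 passed the minimum of 10 CPM, with a median matched log2 ratio of -0.09 for O-Ctrl over Y-Ctrl and 0.09 for O-Ex over O-Ctrl. Tjp1, the scaffold ZO-1, had 37.3, 36.1 and 38.9 CPM. F11r and Lsr, junction genes that epithelia also use, were higher in choroid plexus spots (2.91 ± 0.13 and 2.14 ± 0.18), where Cldn5 was lower. Of 15 further transporters and receptors 11 passed, with medians of -0.08 and 0.20. In matched groups 8 of the 11 were lower in O-Ctrl than in Y-Ctrl, beside 53.4% of all genes. For O-Ex over O-Ctrl 9 were higher, beside 74.4% of all genes. Slc6a6, the taurine transporter, had 23.3, 21.8 and 30.3 CPM and was higher in O-Ex than in O-Ctrl in 13 of 13 groups, with a matched log2 ratio of 0.46. It was named for the size of that ratio, and 10.3% of all genes were higher in at least 12 groups. Slc7a5, the large neutral amino acid transporter, went against the general order, with 11.5, 16.3 and 16.3 CPM.

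The Wnt list held 16 genes, of which 5 passed, with medians of -0.20 and 0.15. Lef1, a TCF/LEF factor, had 22.1, 12.3 and 12.2 CPM over whole sections, a log2 ratio of -0.65 for O-Ctrl over Y-Ctrl. In matched groups it was -0.33. Thalamus spots carried Lef1 at 118.2, 123.2 and 112.5 CPM, and they were more numerous in Y-Ctrl. Their part in the whole-section ratio was not tested, nor whether Lef1 in those spots came from vessels. Axin2, a target of the pathway, had 10.7, 7.79 and 9.74 CPM. Of 6 caveolae and fenestration genes 4 passed, with medians of -0.03 and 0.13, and Cav1 was higher in meninges and arterial smooth muscle spots (1.57 and 1.70). Of 13 vessel growth factor and hypoxia genes 6 passed, with medians of 0.02 and 0.14, the first changing sign in 3 alternatives. Vegfa, the ligand of VEGF receptors such as Flt1, had 23.0, 25.2 and 34.9 CPM and was higher in O-Ex than in O-Ctrl in 13 of 13 groups. Of all genes 10.3% were so in at least 12. The endothelial receptor gene Tek had 7.22, 4.53 and 5.61 CPM, under the minimum of 10 CPM. It was lower in O-Ctrl than in Y-Ctrl in 12 of 13, as its regulator Ptprb was, beside 2.52% of the genes over the minimum. Tek and Vegfa were named for the size of their ratios, so their even direction over groups follows in part from that choice.

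For O-Ctrl over Y-Ctrl the list of endothelial activation and leukocyte adhesion genes ran the other way from most of the 10. Of its 10 genes 5 passed the minimum, and 3 of these were at least 1.2-fold higher in O-Ctrl than in Y-Ctrl in matched groups, beside 2.29% of all genes. The median of the 5 was 0.34 for O-Ctrl over Y-Ctrl. For O-Ex over O-Ctrl it was -0.08 in matched groups, where 2 were at least 1.2-fold lower, beside 0.51% of all genes. Over whole sections that second median was -0.02. Ly6a, which encodes the surface protein Sca-1, had 53.4, 130.8 and 78.6 CPM, and Ly6c1, a related surface protein of mouse brain endothelium, 61.0, 121.4 and 79.1. For both, O-Ctrl was the highest section and O-Ex lay between the controls, and in 13 of 13 groups O-Ctrl stood above each other section. In at least 12 groups, 3.16% of all genes were higher in O-Ctrl than in Y-Ctrl and 1.83% lower in O-Ex than in O-Ctrl. Ly6a and Ly6c1 were among the genes named for the size of their ratios. The near-identical Ly6c2 was counted at 0.18 CPM or less. Vcam1, the leukocyte adhesion receptor, did not share that order, with 16.9, 23.0 and 29.9 CPM. Sele was at 0 in every section and Selp in Y-Ctrl. Of 9 arterial and venous genes 4 passed, with medians of -0.09 and 0.08, the second turning to -0.001 with TMM scaling and -0.02 with groups weighted by their spots. Gkn3, a marker of arterial endothelium, had 5.67, 2.32 and 3.05 CPM.

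Mural cells and other neighbours were read the same way. The 11 pericyte genes summed to 156.3, 154.9 and 167.2 CPM, the 7 smooth muscle genes to 52.8, 50.6 and 67.6, the 10 fibroblast genes to 110.3, 112.5 and 167.5 and the 11 astrocyte genes to 2388, 2547 and 2359. None of these genes was at 0 in any section. Pericyte and smooth muscle sums of the control sections lay close together. Over whole sections 6 of 7 smooth muscle and 10 of 10 fibroblast genes were higher in O-Ex than in O-Ctrl, beside 69.8% of all genes. The median log2 ratio of the 10 fibroblast genes was 0.31 over whole sections and 0.10 in matched groups. That of the 7 smooth muscle genes was 0.16 and 0.11. These 10 fibroblast genes are also the markers that defined the meninges group, and the 7 smooth muscle genes are among the arterial markers. Matching spots by these same genes can by itself make their matched ratios smaller, so no conclusion is drawn from the difference. O-Ex is also the section with the highest Cldn5, Slc2a1 and Bsg. The part of these neighbours in the ratios of the 10 genes was not tested. Microglial genes summed to 374.6, 478.9 and 511.1 CPM.

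Over spots the members varied together only weakly. After each spot was thinned to 3000 UMIs, the mean correlation within sections between a gene and the sum of the other 9 was 0.12 for Cldn5, 0.11 for Itm2a, 0.10 for Bsg and Slco1a4, and no more than 0.02 in any section for Mfsd2a, beside a median of -0.004 over all genes. The points share library and depth, and counts per spot are sparse, so these values describe the data only. The genes whose pattern over spots was most like the sum of the 10 were 1500015O10Rik, Ly6a, Pltp, Clic6 and Kl, at 0.18 to 0.16. Of these, 1500015O10Rik, Clic6 and Kl were among the leading genes of choroid plexus spots. With Bsg left out of the sum, a choice made after the values were seen, the closest were Ly6a and Ly6c1, markers of mouse brain endothelium, at 0.20 and 0.19, then Apoe, Ptgds and Ifitm3.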

How the data were processed

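The authors deposited, per section, a matrix of raw whole-number UMI counts for 31053 gene IDs and 4992 barcodes with lists of gene and barcode names, written by Space Ranger (version 2.0.0, per the file headers) for the build mm10 (per the submitters' processing notes). The aligner is not given in the sources used here. Spot positions were not used here. Spots with at least 3000 UMIs were kept, which held 97.5% to 98.1% of UMIs. A spot joined the marker list with the highest standardised score if it was at least 1 and 0.25 above the next (103 of 104 markers matched), and the rest formed a group of their own. No doublet caller was run. Ratios used CPM plus a pseudocount of 5. Spot groups were tested with edgeR 4.0.16 (quasi-likelihood, TMM, filterByExpr, section as a block) in R 4.3.3, with an adjusted p under 0.05 as the threshold, and DESeq2 1.42.0 as an alternative. Standard errors are the log2 difference divided by the root of its F statistic. Both steps were tested on simulated data.

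The 10 genes were named in full, with, from each of 14 other lists, the 2 most abundant genes and the 2 with the largest matched ratio, and the 12 genes most alike over spots. F11r, Lsr, Slc6a6 and others came under that rule. The genes and lists were chosen with earlier results of these data known. Gene positions are from GENCODE for GRCm38, counted from 1. Alternatives covered the minimum of UMIs, pseudocount, scaling, score minimum, weighting, Leiden clusters of spots, groups left out, the filter, the block and each section left out.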

Additional observations from a re-analysis of the deposited data

Results flagged for a closer look

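Barcodes with fewer than 3000 UMIs took no part in the comparisons. For O-Ex these 1660 barcodes had 1672 UMIs of the 10 genes, or 1254 CPM, above the 956.9 CPM of the 1583 such barcodes of Y-Ctrl and the 843.5 CPM of the 1494 of O-Ctrl. Whether they lay over tissue was not determined here.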

How the results depend on the processing

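Each median of the 10 genes kept its sign in every alternative run: -0.23 to -0.10 (whole) and -0.18 to -0.07 (matched) for O-Ctrl over Y-Ctrl, and 0.13 to 0.30 and 0.11 to 0.23 for O-Ex over O-Ctrl. The value nearest 0 of the matched O-Ctrl over Y-Ctrl median, -0.07, came without the choroid plexus, ependyma, meninges and arterial smooth muscle groups, and Ptprb was then at -0.30. Leaving out the striatum, chosen after the data were seen, gave -0.14 and 0.18. Per endothelial UMI the O-Ctrl over Y-Ctrl median of the 10 was -0.19. With Pecam1, Flt1 and Ptprb as denominator it was -0.067, over the other members only. The cause of these moves was not tested.

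Counts of genes called by spot group (edgeR) changed by over 1.5 times in these cases. Without the section block, upper cortical layers had 5 in place of 8, thalamus 1 in place of 4, striatum 1 in place of 3, white matter 5 in place of 8, ependyma 3 in place of 5 and other spots 2 in place of 4. With library sizes alone, striatum had 5 and ependyma 1. Without the filter ependyma had 3. With a score of at least 1.5, hypothalamus had 6 in place of 3 and other spots 8. Leaving out each section gave 5 to 6 for upper cortical layers, 2 to 4 for thalamus, 0 to 4 for striatum, 2 to 5 for ependyma and 1 to 4 for other spots. The 0 in the striatum came without O-Ctrl, where 2 genes had an unadjusted p under 0.05, and DESeq2 on all sections called 4. Meninges had 9 genes in every alternative. Library sizes alone moved the share of higher calls over all genes from 51.7% to 35.3% (choroid plexus), 50.9% to 71.5% (ependyma), 49.3% to 39.2% (white matter) and 65.2% to 52.7% (striatum), and the median of all genes in white matter by -0.12. No call changed direction. No paired analysis was possible because each group has 1 section and the labels give no replicate numbers.

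Depth limits the rarer genes most: in choroid plexus spots Abcb1a rested on 4 to 10 UMIs per section and Mfsd2a on 5 to 22, so their counting intervals in such groups are wide.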
